A study of Mus musculus with 4 samples.

Results

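The genes described here are the hypoxia-inducible factors Hif1a and Epas1, the proteins that sense oxygen and mark these factors for destruction (Egln1, Egln3 and Vhl), and 5 genes that the factors are known to switch on (Vegfa, Adm, Bnip3, Ankrd37 and Ndrg1). They were read from the probes whose accession in the array files is a RefSeq transcript of 1 of these genes, which gave 16 probes for 10 genes, of 55619 probes and 37042 genes or unnamed transcripts on the array. The RNA came from primary chondrocytes of 6-day-old C57BL/6J mice that carried loxP-flanked alleles of Rela, the p65 subunit of NF-κB. Cells of Rela fl/fl mice (the control cells) and of mice with Prrx1-Cre in addition (Prrx1-Cre; Rela fl/fl, labelled cKO) were each grown for 3 days with 10 ng ml−1 TNF or without it (0 ng ml−1). Each of the 4 combinations was hybridised to 1 array, so every value below has n = 1 and no difference has a replicate check. No test was made between conditions, as each comparison sets 1 array against 1 other, and the number of arrays limits the precision. A fit of TNF and genotype without their interaction would leave 1 residual degree of freedom and take a TNF difference that varies between genotypes for error, and was not run. The Prrx1 promoter drives Cre in limb bud mesenchyme, so cells of other origin in such a culture keep Rela. How many mice each culture came from is not given in the sources used here.

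Under normal oxygen, the prolyl hydroxylases Egln1 and Egln3 modify the HIF-α proteins, and Vhl, the recognition subunit of a ubiquitin ligase, then binds them and leads them to the proteasome. In low oxygen the modification slows, and HIF-α with its partner Arnt binds short DNA motifs beside target genes, among them Egln1 and Egln3 themselves. Cartilage has no vessels and chondrocytes depend on Hif1a for survival, whereas Epas1, which encodes HIF-2α, is known as an inducer of matrix-degrading enzymes in osteoarthritis. Much of this control acts on protein stability, which an RNA array does not read. Oxygen was not varied here as far as the labels say. The question that these arrays can address is how the RNA of the pathway differed with TNF and between genotypes.

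Signals are given relative to the array, where a signal of 1 is the 75th percentile over that array's 59305 spots for transcripts. All 16 probes were well above background on all 4 arrays by the flag of the scanner's software. Differences are on the log2 scale. To set them against technical error, the spread was taken from 173 to 215 probes per array that were spotted 10 times each, and it came to 0.14 for a difference between 2 arrays. A difference of 2 such spreads (0.28, or 1.21-fold) is used below as a reading aid. It covers error between spots and leaves out the spread between cultures, which 1 array per condition cannot show. Probes under the 75th percentile were noisier, with spreads of 0.21 to 0.22 for a difference, against 0.083 to 0.090 for brighter ones, and Egln1, Egln3 and Ankrd37 are among the dim genes.

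Some facts on the arrays bear on every comparison. The signal of the targeted gene Rela was 28.3 and 34.7 in control cells without and with TNF, and 33.9 and 40.2 on the cKO-labelled arrays. It was thus higher by 0.26 and 0.21 where a deletion was labelled. Both values lay within 2 technical spreads (0.28) and past 2 spreads of the bright probes (0.18 and 0.17). The paper reports, by PCR, recombination of the floxed allele in chondrocytes of such mice, and by RT-PCR a tissue-specific loss of Rela. Whether the Rela probe reads the deleted exons is not given in the sources used here, and the arrays are called cKO-labelled throughout. Xist, which is transcribed in female cells, had a signal of 0.71 and 0.75 in control cells and was not well above background on the cKO-labelled arrays, where the Y-linked Ddx3y was 1.49 and 1.71 higher. Ddx3y and Eif2s3y, also Y-linked, were well above background on both control arrays too, at 1.30 and 1.30 and at 1.77 and 1.84. The control arrays thus read both Xist and Y-linked RNA, and the cKO-labelled arrays Y-linked RNA with Xist not well above background, so genotype and sex cannot be told apart. All 10 chondrocyte markers were well above background on all 4 arrays, with a summed signal of 1293 to 1615, and all 8 fibroblast-like markers were too (777 to 940). Of the endothelial and leukocyte markers, Cdh5, Tek, Tie1 and Ptprc were not well above background on any array. Pecam1, Eng, Csf1r, Adgre1, Lyz2 and Cd14 were well above background on all 4. Of 6 endothelial markers, 2 or 3 were well above background, with a summed signal of 2.26 to 2.51, and of 5 leukocyte markers measured, 4 were (3.76 to 4.22). Some spots lay in patches that were bright on 1 array only (1.04% to 10.7% of the spots of an array), and a member spot inside a patch is named where it is described.

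The letters before the start sites of these genes are shown first, because the members are grouped by their known control by HIF. The RefSeq promoter table of GRCm38.p6 held 8 of the 10 genes, with 2 start sites for Vegfa, and had no entry for Epas1 and Ndrg1. The 250 bases upstream of each start site were searched on both strands for the core that HIF binds, ACGTG or GCGTG. It was found for 7 of the 8 genes, against 41.5% of 27025 genes in the table, and ACGTG alone for 6 of 8, against 18.5%. Vhl was the member without a match. A gene counted when any of its windows held a match. Vegfa counted only through its first start site, which lies downstream of the second along the gene. The window of the second Vegfa start site held no match. The 6 windows printed here are those of the factor Hif1a, of Egln1 and Adm (the largest differences with TNF in control cells on the brightest probe of a gene), of Bnip3 and Ankrd37 (the most matches) and of Vhl. They run 5′ to 3′ along the gene, and capitals mark the core or its complement.
Hif1a, chr12:73907617-73907866, plus strand: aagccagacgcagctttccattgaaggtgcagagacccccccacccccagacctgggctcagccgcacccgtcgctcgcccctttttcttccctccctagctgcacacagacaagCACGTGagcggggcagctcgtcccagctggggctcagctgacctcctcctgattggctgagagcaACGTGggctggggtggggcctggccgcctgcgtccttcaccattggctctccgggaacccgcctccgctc
Egln1, chr8:124949255-124949504, minus strand: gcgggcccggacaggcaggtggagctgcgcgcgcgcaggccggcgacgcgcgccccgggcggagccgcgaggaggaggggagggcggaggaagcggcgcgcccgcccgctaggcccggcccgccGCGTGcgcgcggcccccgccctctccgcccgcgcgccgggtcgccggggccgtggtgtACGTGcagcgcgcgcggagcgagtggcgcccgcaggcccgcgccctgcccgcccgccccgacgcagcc
Vhl, chr6:113623744-113623993, plus strand: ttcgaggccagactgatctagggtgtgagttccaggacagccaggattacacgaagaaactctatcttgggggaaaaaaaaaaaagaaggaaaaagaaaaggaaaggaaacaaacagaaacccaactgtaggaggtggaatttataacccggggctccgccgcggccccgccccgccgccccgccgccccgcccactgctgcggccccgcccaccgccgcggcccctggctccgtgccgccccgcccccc
Adm, chr7:110627407-110627656, plus strand: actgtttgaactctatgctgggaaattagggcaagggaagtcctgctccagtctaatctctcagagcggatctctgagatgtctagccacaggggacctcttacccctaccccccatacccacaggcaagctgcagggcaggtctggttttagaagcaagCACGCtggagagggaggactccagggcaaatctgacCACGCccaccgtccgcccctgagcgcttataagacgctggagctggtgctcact
Bnip3, chr7:138909507-138909756, minus strand: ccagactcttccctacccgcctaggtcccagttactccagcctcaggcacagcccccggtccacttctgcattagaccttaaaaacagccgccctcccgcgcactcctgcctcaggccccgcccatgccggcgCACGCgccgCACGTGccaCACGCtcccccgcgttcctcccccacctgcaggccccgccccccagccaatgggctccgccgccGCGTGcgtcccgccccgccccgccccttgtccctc
Ankrd37, chr8:45999851-46000100, minus strand: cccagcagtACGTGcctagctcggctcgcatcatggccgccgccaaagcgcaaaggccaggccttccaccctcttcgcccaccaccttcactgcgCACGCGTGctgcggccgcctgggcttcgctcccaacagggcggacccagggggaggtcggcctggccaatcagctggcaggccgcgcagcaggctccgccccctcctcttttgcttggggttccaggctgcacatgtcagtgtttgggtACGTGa
In Hif1a and Bnip3, 1 marked stretch reads CACGTG, a palindrome that holds the core once on each strand and is also the E-box letters that other factors bind. Counted by strand, so that such a stretch gives 2 matches, Bnip3 held 5 matches and Ankrd37 held 4, of which 2 overlap in CACGCGTG and the last began at −6, counted from the start site. Egln1 held GCGTG at −126 and ACGTG at −68. The 2 matches of Adm were both GCGTG on the opposite strand. A search for the NF-κB motif in the same windows, on both strands, matched 1 member window, that of the second Vegfa start site, and 7.25% of all windows in the table. These matches describe letters and are not shown to be bound sites, and no test was made of the shares.

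**Figure D1:**
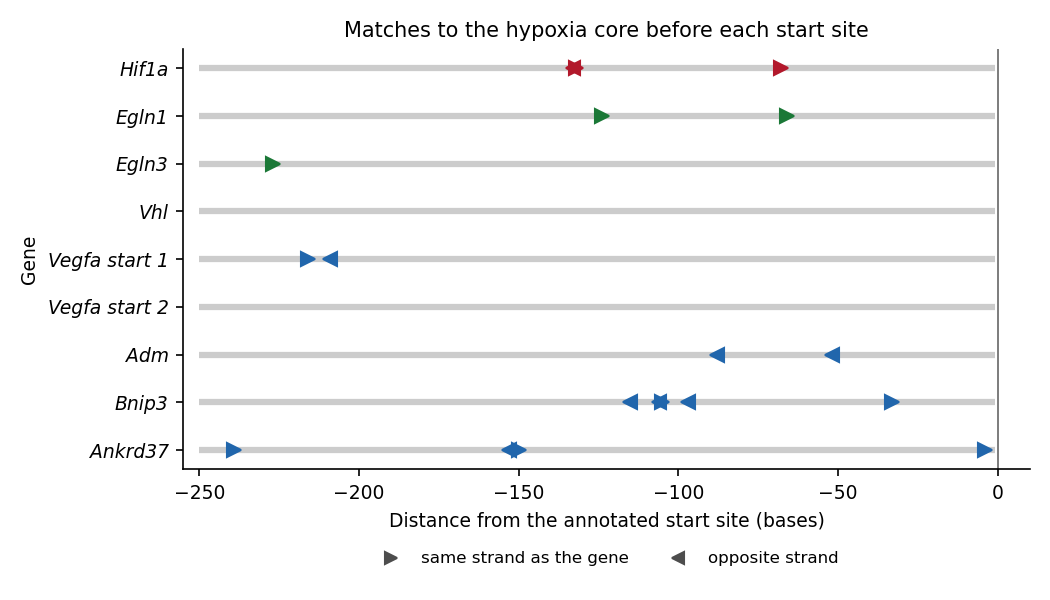
Positions of the core ACGTG or GCGTG in the 250 bases before each annotated start site of 8 genes (x axis, distance from the start site in bases; 9 windows, as Vegfa has 2 start sites). Triangles point along the gene for a match on its own strand and against it for a match on the opposite strand; 7 of the 9 windows hold at least 1 match, and the windows of Vhl and of the second Vegfa start site hold none.

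Both factors were read well above background, and only the values of Hif1a differed with TNF by more than 2 technical spreads. Hif1a (NM_010431, 1 probe), the oxygen-regulated subunit of HIF-1, had a signal of 8.11 in control cells without TNF, 11.1 with TNF, 8.20 on the cKO-labelled array without TNF and 8.77 on the cKO-labelled array with TNF. The control array with TNF stood above the other 3, which lay close together. Hif1a was thus higher with TNF by 0.46 (1.37-fold) in control cells and by 0.10 (1.07-fold) on the cKO-labelled arrays. The difference between genotypes was 0.02 without TNF and −0.35 with TNF. As whole cultures were measured, fewer cells of a type and less RNA per cell cannot be told apart, here or below.

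Epas1 (NM_010137, 3 probes) showed no such difference on its brightest probe, with signals of 12.7 and 13.4 in control cells without and with TNF and 12.6 and 12.9 on the cKO-labelled arrays. All 4 values lay within 0.09 of each other on the log2 scale, less than 1 technical spread. The differences with TNF were 0.08 in control cells and 0.03 on the cKO-labelled arrays. A second probe gave 6.52, 6.49, 6.63 and 7.25 in the same order, all within 0.16. The last probe, dim at 0.25 to 0.36, was higher by 0.40 and 0.48 on the cKO-labelled arrays, without and with TNF, so the probes of Epas1 disagreed on the genotype difference. The spots of these other probes lay in a patch on the control array without TNF.

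Of the genes that restrain the factors, the prolyl hydroxylases Egln1 and Egln3 were higher with TNF in control cells, and Vhl was within 2 technical spreads with TNF. Egln1 (NM_053207, 1 probe), the main oxygen sensor of the pathway, had signals of 0.493 without and 0.808 with TNF in control cells, and of 0.476 and 0.528 on the cKO-labelled arrays. As with Hif1a, the control array with TNF was the high one and the other 3 were near each other. The difference with TNF was 0.71 (1.64-fold) in control cells and 0.15 (1.11-fold) on the cKO-labelled arrays, and the cKO-labelled array was lower by 0.61 under TNF.

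Egln3 (NM_028133, 2 probes), a paralogue that HIF itself induces in many cells, had signals of 0.434 and 0.641 in control cells without and with TNF, and of 0.348 and 0.434 on the cKO-labelled arrays. Its difference with TNF was 0.56 in control cells and 0.32 on the cKO-labelled arrays. The other probe, at 0.174, 0.307, 0.176 and 0.202 in the same order, gave 0.82 and 0.20, with its spot in a patch on the cKO-labelled array without TNF. Without TNF the brighter probe was lower by 0.32 on the cKO-labelled array, whereas the other differed by 0.02, so the probes disagreed there. With TNF they were lower by 0.56 and 0.61.

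Vhl (NM_009507, 1 probe) had signals of 5.34 and 5.52 in control cells without and with TNF, and of 4.41 and 4.96 on the cKO-labelled arrays. Both cKO-labelled arrays were below both control arrays. The genotype difference was −0.28 without TNF, just past 2 technical spreads, and −0.15 with TNF. With TNF it was higher by 0.05 in control cells, where its spot lay in a patch on the array with TNF, and by 0.17 on the cKO-labelled arrays.

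Among the 5 target genes, Adm, Vegfa, Bnip3 and Ankrd37 were higher with TNF in control cells and Ndrg1 was not. Adm (NM_009627, 1 probe), which encodes the vasodilator peptide adrenomedullin, had the largest difference of the 10 genes on their brightest probes, close to the 0.82 of the dimmer Egln3 probe. Its signal was 6.09 and 10.6 in control cells without and with TNF, and 6.54 and 7.79 on the cKO-labelled arrays. That is a difference of 0.81 (1.75-fold) in control cells and of 0.25 (1.19-fold) on the cKO-labelled arrays. Without TNF the genotypes differed by 0.10, and with TNF the cKO-labelled array was lower by 0.45.

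Vegfa encodes the growth factor that draws vessels into cartilage, and was read by a bright probe with 2 spots (NM_001025250) and a dim one (NM_001025257). The bright probe had signals of 4.97 and 7.75 in control cells without and with TNF, and of 5.02 and 6.18 on the cKO-labelled arrays. Both arrays with TNF were above both arrays without it, by 0.64 in control cells and by 0.30 on the cKO-labelled arrays. The dim probe, at 0.813, 1.18, 0.775 and 1.14 in the same order, gave 0.54 and 0.56. The probes therefore agreed that Vegfa was higher with TNF in both genotypes and disagreed on whether the difference was smaller on the cKO-labelled arrays. Under TNF the genotypes differed by −0.33 on the bright probe and by −0.05 on the dim one.

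Bnip3 (NM_009760), a mitochondrial protein that promotes the removal of mitochondria, was read by 3 probes. The brightest gave 61.8 and 92.6 in control cells without and with TNF, and 56.5 and 61.9 on the cKO-labelled arrays. The cKO-labelled array with TNF was thus at the level of the control array without it. The difference with TNF was 0.58 in control cells and 0.13 on the cKO-labelled arrays, but the spot on the control array with TNF lay in a patch. The other probes, outside patches, gave 0.61 and 0.70 in control cells and 0.32 and 0.27 on the cKO-labelled arrays. Under TNF all 3 were lower on the cKO-labelled array, by 0.58, 0.47 and 0.61.

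Ankrd37 (NM_001039562, 1 probe) encodes an ankyrin-repeat protein whose RNA HIF-1 is known to induce. Its signals were 0.534 and 0.718 in control cells without and with TNF, and 0.411 and 0.542 on the cKO-labelled arrays. It was higher with TNF by nearly the same amount in both genotypes, 0.43 and 0.40, and lower on the cKO-labelled arrays by 0.38 without and 0.41 with TNF. Its pattern differed in this from those of Hif1a and Egln1. The gene is dim, and only its difference with TNF in control cells lay past 2 spreads of the dim probes, at 0.429 against a limit of 0.427.

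Ndrg1 (NM_008681, 1 probe), a stress-induced gene of differentiation, had signals of 23.5 and 23.3 in control cells without and with TNF, and of 20.2 and 23.2 on the cKO-labelled arrays. Here the array that stood apart was the one labelled cKO without TNF, lower by 0.22, and the other 3 lay close together. The difference with TNF was −0.01 in control cells and 0.20 on the cKO-labelled arrays.

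**Figure D2:**
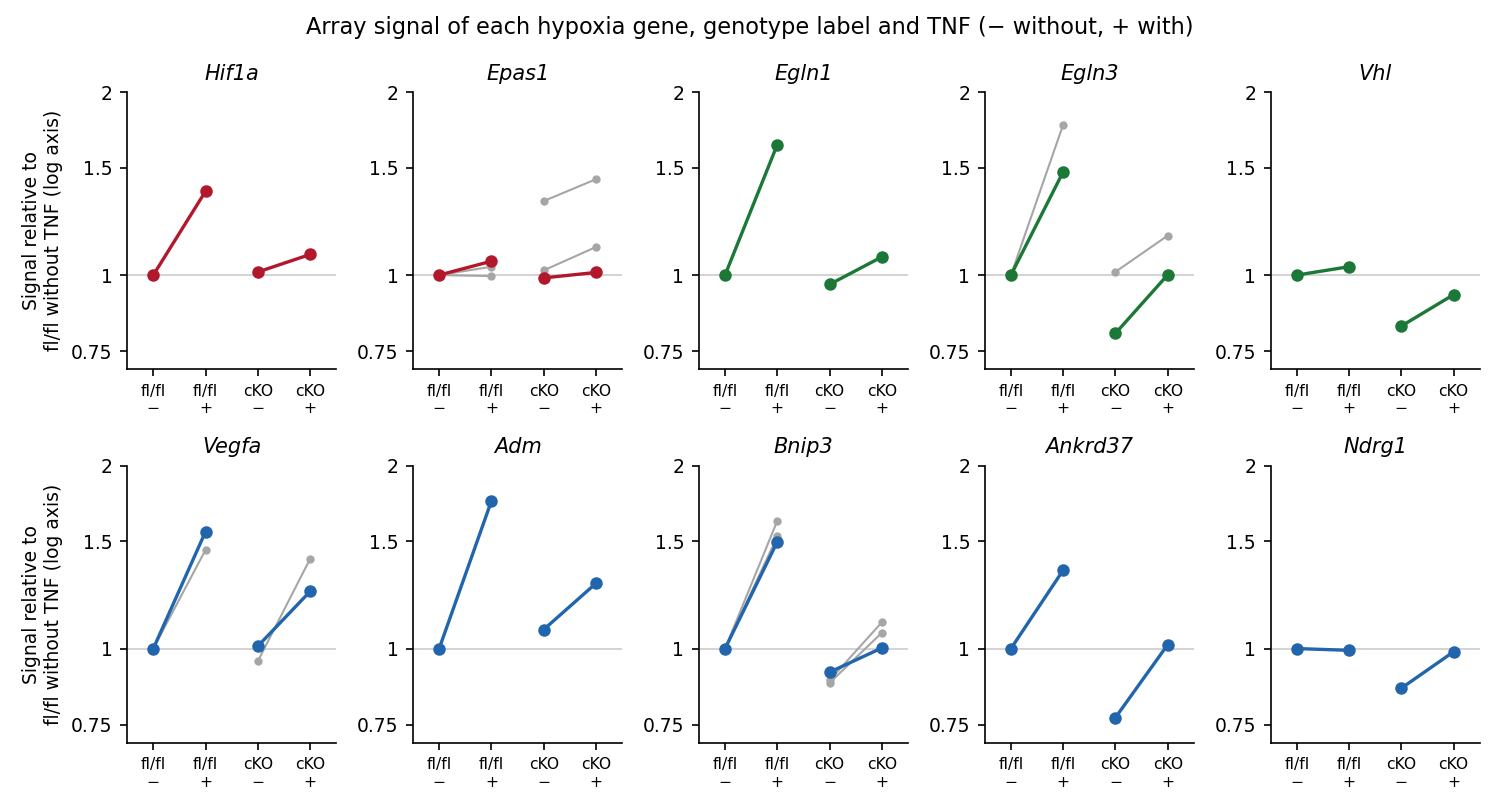
Signal of each probe on the 4 arrays, divided by the signal of the same probe on the control array without TNF (y axis, log scale; x axis, genotype label, where fl/fl are the control cells, and TNF). Coloured points are the brightest probe of a gene (red, factors; green, sensors and Vhl; blue, targets), grey points its other probes, each point 1 array; in Hif1a, Egln1 and Adm the control array with TNF stands above the other 3, and Epas1 and Ndrg1 show no step with TNF in control cells.

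Taken gene by gene on the brightest probe, none of the 10 genes reached a log2 difference of 1 in any comparison. In control cells with TNF the count was 0 of 10, where 6.86% of 22708 genes reached it in either direction. At the smaller limit of 2 technical spreads, 7 of the 10 were higher with TNF, against 9.4% of 20621 genes that were well above background on both arrays. These were Hif1a, Egln1, Egln3, Vegfa, Adm, Bnip3 and Ankrd37, and Epas1, Vhl and Ndrg1 were not among them. The median difference of the 10 was 0.51, against 0.01 for all genes, and 95.1% to 98.6% of all genes lay below each of the 7. With the spread taken by brightness the count was again 7, against 10.3% of genes.

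On the cKO-labelled arrays all 10 differences with TNF were above 0, as were 13773 of 22496 genes. Most of the 10 lay within 2 technical spreads. The count at a log2 difference of 1 was 0 of 10 (5.06% of 24705 genes), and 3 of 10 were higher by 2 technical spreads, against 11.1% of 22496 genes. The 3 were Ankrd37, Egln3 and Vegfa, at 0.34, 0.26 and 0.24 above the median of all genes. The median was 0.19, against 0.06 for all genes. In this comparison the scaling mattered: without it the median of all genes moved by −0.10, to −0.05, and the members counted fell to 1 of 10, against 5.31% of genes. Over all genes, 2491 were higher and 2857 lower by 2 technical spreads with scaling, and 1195 and 4303 without it. With 1 factor per array, scaling cannot change the distance of the members' median from that of all genes, which was 0.13, but 8 of the 10 values stayed above 0 without it. After quantile normalization the distance was 0.070, and 7 of the 10 values were above 0, with a median of all genes of 0.04. With the spread taken by brightness the count was 3 (Vegfa, Adm and Ndrg1), against 17.6% of genes.

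Set side by side, the difference with TNF was larger in control cells than on the cKO-labelled arrays for 8 of the 10 genes, with a median excess of 0.29, against 41.2% of 20481 genes and a median of −0.05. It was larger by 2 technical spreads of 4 arrays (0.39) for Egln1 (0.56), Adm (0.55) and Bnip3 (0.45). That is 3 of 10, against 9.49% of 20481 genes. Hif1a and Vegfa were counted too without scaling, after quantile normalization and with the authors' table, which gave 5 of 10, against 13.6%, 8.12% and 12.1% of genes. With patches left out the count was 2 of 9 (Egln1 and Adm), against 7.98%. With the spread taken by brightness the count was 4 (Adm, Bnip3, Hif1a and Vegfa), against 8.52% of genes, and Egln1 was no longer in it. On its other 2 probes, the excess of Bnip3 was 0.30 and 0.42, and that of Vegfa was −0.02 on its dim probe. The excess of Egln3 was 0.24 on its brightest probe and 0.62, past the limit, on the other. Vhl (−0.13) and Ndrg1 (−0.21) were the 2 genes whose difference was larger on the cKO-labelled arrays.

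**Figure D3:**
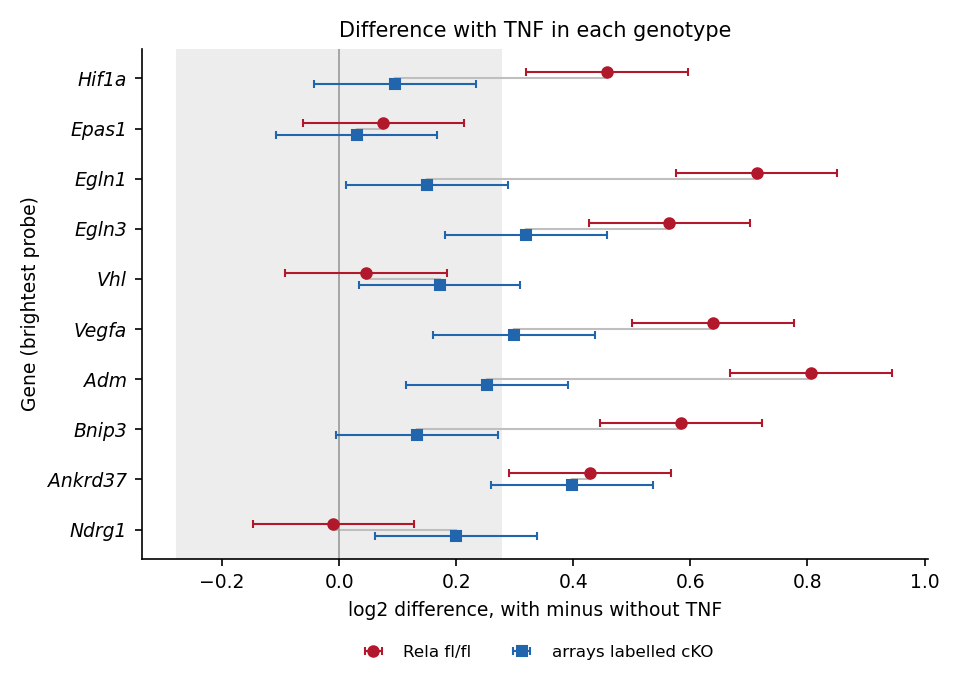
Difference of the brightest probe of each gene, with minus without TNF, on the log2 scale (x axis), in control cells (Rela fl/fl, red circles) and on the cKO-labelled arrays (blue squares). Bars are ± 1 technical spread of a difference (0.14), which leaves out the spread between cultures, and the grey band is 2 of them; 7 genes lie right of the band in control cells and 3 on the cKO-labelled arrays.

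Without TNF, 7 of the 10 genes differed between genotypes by less than 2 technical spreads. No member reached a log2 difference of 1 (7.98% of 23318 genes did), and 3 of 10 were lower on the cKO-labelled array by 2 technical spreads, against 11.1% of 20735 genes. They were Ankrd37 (−0.38), Egln3 (−0.32, with its other probe at 0.02) and Vhl (−0.28), and the median over the 10 was −0.09. Without scaling the count was 1, against 9.35% of genes. With the spread taken by brightness it was 2 (Vhl and Ndrg1), without Ankrd37 and Egln3, against 11.7% of genes.

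With TNF all 10 genes had lower values on the cKO-labelled array, by as little as 0.01 for Ndrg1, against 8670 of 21903 genes. The median of the 10 was −0.38, against 0.05 for all genes. Ndrg1 was 0.03 higher with the normexp background correction, and Epas1 0.19 higher as a mean over its probes. None reached a log2 difference of 1, as 4.3% of 24198 genes did, and 7 of 10 were lower by 2 technical spreads, against 10.5% of 21903 genes. The 7 were Egln1 (−0.61), Bnip3 (−0.58), Egln3 (−0.56), Adm (−0.45), Ankrd37 (−0.41), Hif1a (−0.35) and Vegfa (−0.33). This comparison and that of TNF in control cells share the control array with TNF, so a high value on that array enters both, and the counts are not independent of each other. The same holds for the other comparisons, since all 4 were made from the same 4 arrays. With the spread taken by brightness, 6 of 10 were lower, without Ankrd37, against 9.87% of genes. Over all genes, 3308 were higher and 2297 lower by 2 technical spreads, and without scaling 2326 and 3091.

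**Figure D4:**
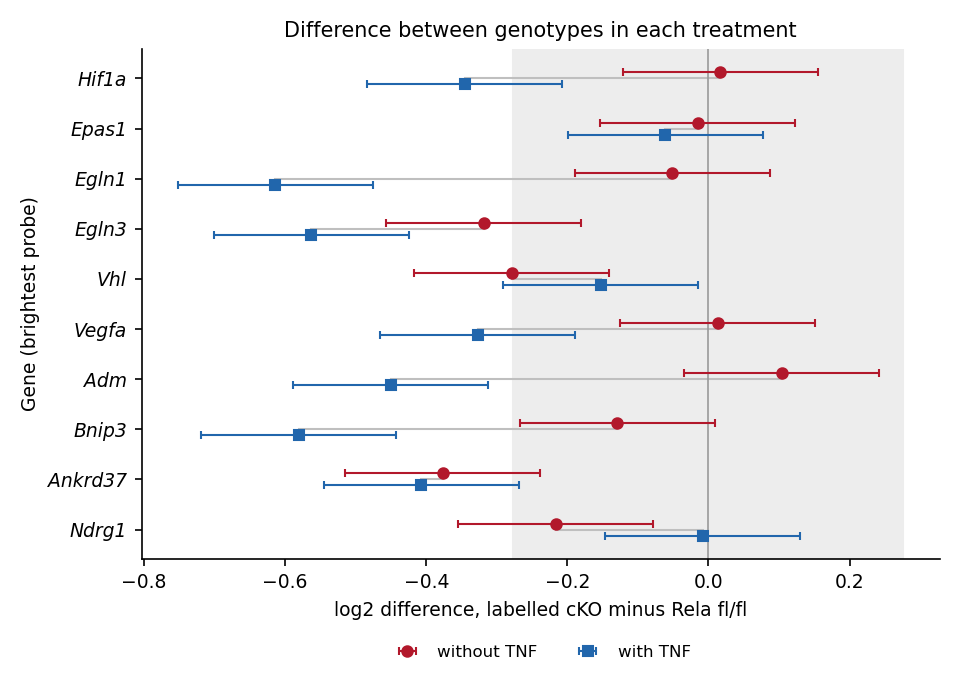
Difference of the brightest probe of each gene, cKO-labelled array minus control (Rela fl/fl) array, on the log2 scale (x axis), without TNF (red circles) and with TNF (blue squares). Bars are ± 1 technical spread (0.14) and the grey band is 2 of them; without TNF 3 genes lie left of the band, and with TNF 7 do, from −0.61 for Egln1 to −0.33 for Vegfa.

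**Figure D5:**
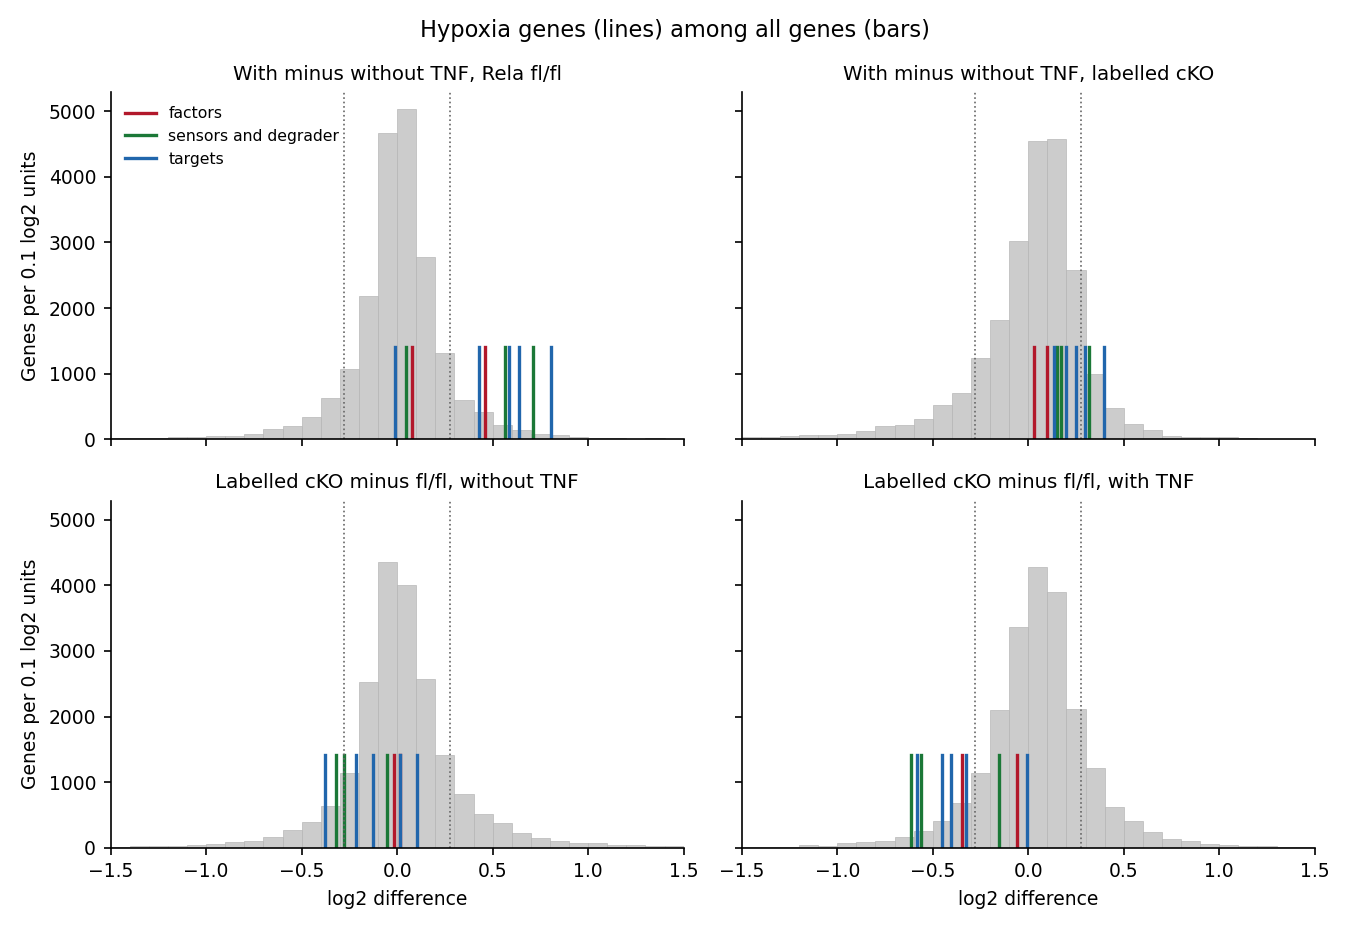
Differences of the 10 genes (coloured lines, brightest probe) over the number of genes per 0.1 log2 units (grey bars, genes well above background on both arrays) in the 4 comparisons, drawn from −1.5 to 1.5. Dotted lines mark 2 technical spreads (0.28); 7 of the 10 genes lie toward the right edge of the distribution for TNF in control cells, and 7 toward the left edge for the genotypes under TNF, while Epas1, Vhl and Ndrg1 lie nearer the middle in both.

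Wider lists of the pathway showed where else such differences lay. A list of other hypoxia targets held genes outside glycolysis and the hexokinase gene Hk2. Of the 31 that were well above background on both control arrays, 18 were higher with TNF by 2 technical spreads and 1 was lower. The median was 0.36 (9.4% and 0.01 for all genes, as above). Hk2 was among those counted as higher, by 0.38 in control cells and by 0.34 on the cKO-labelled arrays. On the cKO-labelled arrays, 13 were higher and 2 lower, with a median of 0.26 (11.1% higher and 12.7% lower of all genes). Without scaling, 8 were higher and 2 lower (5.31% and 19.1% of all genes), and after quantile normalization 8 and 1 (16.7% and 9.03%). Angptl4, a secreted inhibitor of lipoprotein lipase, was higher by 1.37 and 0.96 in the 2 genotypes. Car9, a carbonic anhydrase of the cell surface and a classical HIF-1 target, had signals of 4.40 and 9.51 in control cells without and with TNF, and of 2.93 and 3.94 on the cKO-labelled arrays. It was higher with TNF by 1.11 in control cells and by 0.43 on the cKO-labelled arrays, where its spot with TNF lay in a patch, and under TNF the genotypes differed by −1.27. Fam162a and Higd1a, both mitochondrial proteins, were higher by 0.60 and 0.40 in control cells, and P4hb, a subunit of the collagen prolyl hydroxylase, differed by −0.03. Stc1 was well above background on the cKO-labelled array without TNF only, in a patch.

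Of 11 glycolytic HIF targets, 8 were higher with TNF in control cells and 0 lower, with a median of 0.46, against 9.4% and 9.82% of all genes. On the cKO-labelled arrays 4 were higher (median 0.16), against 11.1% of all genes, and 2 without scaling (5.31%) or after quantile normalization (16.7%). The enzyme genes Ldha, Aldoa and Eno1 differed by 0.16, 0.31 and 0.08 in control cells. Under TNF, 3 of the 11 were lower on the cKO-labelled array, with a median of −0.20 (10.5% of all genes), and 5 without scaling (14.1%) and 6 after quantile normalization (9.82%).

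The counts for the machinery around the factors lay near those of all genes in control cells, of which 9.4% were higher and 9.82% lower with TNF. Of 10 further genes of oxygen sensing and HIF destruction, 0 were higher and 1 was lower with TNF in control cells (Siah1a, by 0.33, with its spot in a patch on the array with TNF), with a median of −0.03. Egln2, the other prolyl hydroxylase of the family, differed with TNF by 0.02 in control cells and by 0.13 on the cKO-labelled arrays. Elob and Rbx1, subunits of the Vhl ligase, differed by −0.03 and −0.06 in control cells. Hif1an, which hydroxylates HIF-α on an asparagine, was at 0.761, 0.753 and 0.704 on 3 arrays and at 1.43 on the cKO-labelled array without TNF, where its spot lay in a patch, so its difference with TNF of −1.02 there rests on that spot. Of the HIF partners, 1 of 7 was higher with TNF in control cells: Cited2, which competes with HIF-1α for its coactivators, by 0.36. The chaperones Hsp90aa1 and Hsp90ab1 differed by 0.10 and 0.03.

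The partners of the targets were mostly near 0 in control cells. Among 7 other genes of the VEGF family and its receptors that were well above background on both arrays, 1 was higher with TNF by 2 technical spreads. That compares with 9.4% of all genes, and the median was 0.00. The gene was Vegfc, by 0.63, with its spot in a patch on the control array without TNF. Kdr and Nrp2, which encode receptors, were at −0.03 and 0.00, and Vegfd at 0.24. Of the adrenomedullin receptor genes, Calcrl, the receptor itself, was not well above background on any array, whereas its partner Ramp2 was lower with TNF by 0.52 in control cells and by 0.53 on the cKO-labelled arrays. Ramp1 differed by −0.11 and the related peptide gene Adm2 by 0.08 in control cells. Of the relatives of Ndrg1 and Bnip3, Ndrg3 and Bnip2 differed with TNF by 0.07 and −0.10 in control cells. The spot of Bnip2 lay in a patch on the control array with TNF, so its value rests on that spot. Ndrg4 was higher on the cKO-labelled arrays by 0.59 and 0.61, without and with TNF. Of 5 relatives well above background on both control arrays, 1 was higher with TNF by 2 technical spreads, against 9.4% of all genes. That was Ndrg2, by 0.34, and it was lower on the cKO-labelled arrays by 0.71 without and 0.80 with TNF. Ndrg2, Vegfc and Siah1a are named after their values were seen.

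The signal of Epas1 on its brightest probe was nearly the same on the 4 arrays. Of 13 genes named as its targets in cartilage, 10 were well above background on both control arrays, and 6 of these were higher with TNF by 2 technical spreads (9.4% of all genes), with a median of 0.53. On the cKO-labelled arrays 2 of 10 were higher (11.1% of all genes) and 1 was lower (12.7%), Adamts5, an aggrecanase, by 0.56, and the median was −0.01. Adamts5 is named after its values were seen. Several of them are also NF-κB targets. Mmp3, a stromelysin that degrades matrix, had signals of 0.612 and 15.2 in control cells without and with TNF, and of 0.249 and 1.47 on the cKO-labelled arrays, so it was higher by 4.64 and 2.56. The collagenase gene Mmp13 was higher with TNF by 1.09 in control cells and differed by −0.11 on the cKO-labelled arrays, where it was higher than in control cells by 1.04 without TNF. Slc39a8, a zinc importer, was higher by 1.01 in control cells and by 0.03 on the cKO-labelled arrays. Ptgs2, the inducible cyclooxygenase, was higher by 0.59 and 0.81, with 1 of the 10 spots of its probe in a patch on each control array. On the cKO-labelled arrays Ptgs2 was higher than in control cells by 0.82 without and 1.04 with TNF. Il6, which is not among the 10, was well above background on the control array with TNF only, at 0.387, which is a log2 difference of at least 2.88. Col10a1, the collagen of hypertrophic chondrocytes, differed with TNF by −0.18 and −0.05, and was higher on the cKO-labelled arrays by 0.83 without and 0.97 with TNF. Of the 10, 4 were higher and 1 lower on the cKO-labelled array without TNF (13.9% and 11.1% of all genes). With TNF 2 were higher and 5 lower (15.1% and 10.5% of all genes). Fas, a death receptor, was higher by 0.70 in control cells and differed by −0.07 on the cKO-labelled arrays, and Nampt, an enzyme of NAD synthesis, differed by 0.21 and −0.12.

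For scale, 6 NF-κB response genes were looked at as a check. All 6 were higher with TNF in control cells by 2 technical spreads (9.4% of all genes), with a median of 1.27. On the cKO-labelled arrays 5 of 6 were higher (11.1% of all genes), with a median of 0.62. Under TNF 5 of 6 were lower on the cKO-labelled array (10.5% of all genes), with a median of −1.02. Chondrocyte markers moved with these comparisons as well. Of 10, 5 were lower with TNF in control cells (median −0.26), against 9.82% of all genes. On the cKO-labelled arrays 2 were higher and 0 lower with TNF, against 11.1% and 12.7% of all genes, 0 and 0 without scaling, and 0 and 2 after quantile normalization. Compared with control cells 7 were lower on the cKO-labelled array without TNF and 5 with TNF, against 11.1% and 10.5% of all genes. The largest of these differences was that of Matn1, a cartilage matrix protein, at −1.85 without TNF and −1.18 with TNF. Of 8 fibroblast-like markers, 5 were lower on the cKO-labelled array without TNF (median −0.41) and 4 with TNF (median −0.32), against the same shares of all genes, and with TNF 7 were after quantile normalization. Dpt, an extracellular matrix protein, and Thy1, a cell surface protein, differed there by −1.62 and −1.59 without TNF, and with TNF by −1.16 and −0.27. Of 4 leukocyte markers, 2 were higher and 1 lower on the cKO-labelled array without TNF (13.9% and 11.1% of all genes). With TNF 0 were higher and 2 lower (15.1% and 10.5%), Lyz2 at −0.94 and Adgre1 at −0.50. Without TNF the spot of Lyz2 on the control array and that of Adgre1 on the cKO-labelled array lay in patches. The part of the markers and of sex in the values of the hypoxia genes was not tested. With the spots in patches left out, which removed Vhl, the counts at 2 technical spreads over the 9 genes left were 7 with TNF in control cells, 4 with TNF on the cKO-labelled arrays, 2 between genotypes without TNF and 7 with TNF, against 8.51%, 11.3%, 9.06% and 9.3% of genes.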

How the data were processed

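RNA of 4 chondrocyte cultures was measured on a 1-colour Agilent mouse array. Spot by spot, the deposited intensity values came from Agilent Feature Extraction 10.10.1.1, which subtracts background and marks outlier spots and those well above background, and the authors added a table of the same intensity values times 1 factor per array (1.77 to 1.83), whose basis is not given in the sources used here. These intensity values were taken to log2, and the 75th percentile of each array was subtracted (590 to 634 intensity units). Outlier spots were left out, and spots of 1 probe were averaged. The files pair probes with accessions, so symbols were looked up by unversioned accession in a RefSeq gene table (GRCm38.p6), which matched 20418 of 20791 NM accessions. The brightest probe stood for a gene. A probe counted in a comparison when its brighter array was well above background, and a dimmer signal without that mark was raised to the faintest marked one of its array.

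Samples were grouped by the labels. With 1 array per group no p-value was computed. Differences were counted at a log2 difference of 1 and, chosen after seeing the data, at 2 technical spreads, pooled or by brightness. Patches are groups of spots, 3 or more within 5 rows and 2 columns, whose signal on 1 array was 2-fold or more that on every other array. The members and gene lists were chosen with earlier results of these data known. Named genes are the members, any list gene past a log2 difference of 1, up to 3 further genes per list with the highest mean signal, and markers as checks; 1 gene that meets this rule is not reported here. Genes with a pattern like a member's were to be named where a member ranged over 1 or more on the log2 scale, which none did (largest 0.89). The counting was tested on simulated data. The alternatives were no scaling, quantile normalization, the authors' table, normexp background correction (offset 50), other filters, other limits (1.5-fold and 3-fold), other probe rules and patches left out. The counts of the gene lists, and of the difference between genotypes in the TNF response, under some of these alternatives were added after seeing the data. Python 3.11.15 with numpy 2.4.6, pandas 2.3.3 and matplotlib 3.10.9, and R 4.3.3 with limma 3.58.1, were used. Sequences of the array probes were not used here.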

Additional observations from a re-analysis of the deposited data

Results flagged for a closer look

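In 3 of 18 chondrocyte and fibroblast-like marker genes the difference with TNF had opposite signs in the 2 genotypes, each beyond 2 technical spreads, as in 2.2% of 20481 genes that passed the background flag on each array. The count for the 10 hypoxia genes was 0, which at that share says little. Matn1, a cartilage matrix protein, differed by −0.29 in control cells and by 0.38 on the cKO-labelled arrays. Snorc, a chondrocyte membrane proteoglycan, differed by −0.36 and 0.29, and Thy1, a surface protein of fibroblast-like cells, by −0.69 and 0.63. Without scaling, the differences on the cKO-labelled arrays were 0.27 for Matn1 and 0.18 for Snorc, both within 2 technical spreads, and 0.52 for Thy1. After quantile normalization they were 0.23, 0.15 and 0.63. With 1 array per condition these differences were not tested.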

How the results depend on the processing

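At a log2 difference of 1 the count of members was 0 in all 4 comparisons under each alternative except the 1.5-fold limit, which gave 3 with TNF in control cells and 1 between genotypes with TNF, where 11.1% and 10.2% of all genes passed it in either direction. At 2 technical spreads, the count with TNF on the cKO-labelled arrays was 3, and 1 without scaling (5.31% of genes) and 1 with the authors' table (5.06%). The count between genotypes without TNF was 3, and 1 without scaling (9.35%). The count of members whose difference with TNF was larger in control cells was 3, and 5 without scaling, 5 after quantile normalization and 5 with the authors' table, alternatives chosen for it after seeing the data. The counts of 7 with TNF in control cells and of 7 between genotypes with TNF stayed within 1.5-fold under every alternative. Of 265 recomputed values of members that an alternative could move, 253 moved by less than 1 technical spread and 12 by more, and 0 values beyond 2 technical spreads changed sign. Leaving out patches left 9 members, without Vhl. The cause of these shifts was not tested. No paired analysis was possible because each group has 1 array, so the 2 groups of a comparison share only 1 replicate number, and no replicate could be left out. Dim probes limit Egln1, Egln3 and Ankrd37, whose technical spread is the largest.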
